A study of Mus musculus with 2 samples.

Results

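The genes described here are 47 mouse genes that encode the DNA replication machinery and its S-phase supply, taken as a list of symbols and found in full among the 43346 Ensembl genes of the deposited tables. They were grouped by role into origin recognition, licensing, the MCM helicase, helicase activation, the origin firing kinase, polymerases and primase, the clamp and its loader, single-strand binding, strand joining, nucleotide supply and chromatin assembly. The samples were 2 libraries of polyadenylated RNA, read in paired end mode, from megakaryocytes, the blood cells that shed platelets. Per the labels these were primary cells from mouse embryos at day 14.5, pooled from males and females, with no genotype, strain or treatment named. As the labels hold a single group, nothing below contrasts conditions or rests on a test. The libraries are labelled replicates 1 and 2 but share their biosample and donor in the labels, so differences between them may be technical.

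Replication begins when the origin recognition complex, with CDC6 and CDT1, loads the ring-shaped MCM helicase onto DNA before S phase. The DDK kinase and CDC45 with the GINS complex then turn the loaded ring into an active helicase, and polymerases alpha, delta and epsilon copy the strands with the sliding clamp PCNA. Megakaryocytes are known for repeating S phase without dividing, an endocycle that gives large cells with many genome copies, so the same machinery serves repeated rounds in 1 nucleus.

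Replicate 1 held 42099216 expected counts (estimated numbers of fragments per gene), against 2275922 for replicate 2, so it was 18.5 times as deep. The 47 members together took 58429 counts in replicate 1 and 2638 in replicate 2, with a median of 711 and 15 counts per member. In replicate 2, 34 members had fewer than 50 counts, so single values there carry wide counting error. An unlabelled pair of values below is replicate 1, then replicate 2. The limit that a count of 0 allows, 3 counts, equals 0.0713 CPM (counts scaled to library size) in replicate 1 and 1.32 CPM in replicate 2. Of 10 megakaryocyte markers fixed as a list, all reached at least 1 TPM (a level corrected for transcript length and depth) in both libraries, from 173 to 4430 TPM in replicate 1 and from 127 to 7700 TPM in replicate 2. Summed erythroid markers stood at 7084 and 13900 TPM, most of it Hba-a1 globin. Summed markers were 874 and 229 TPM for macrophages and 854 and 150 TPM for granulocytes, with the macrophage marker Timd4 at 0 in both libraries and 6 of 10 granulocyte markers at 0 in replicate 2. The part of other cells in the members' levels was not tested. In bulk RNA, fewer cells of a type and less RNA per cell cannot be told apart.

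Most of the replication machinery was found, at moderate levels. A mean of at least 1 TPM was reached by 43 of 47 members (91.5%), against 22.7% of all 43346 genes and 42.5% of 21474 protein coding genes. The members below that level were Cdc6, Cdc7, Gins3 and Rfc1. At least 1 TPM was met by 43 members in replicate 1, by 36 in replicate 2 and by 35 in both. The median member stood at 10.2 TPM in replicate 1, against 5.89 TPM in replicate 2, beside 11.3 and 7.54 TPM for all genes that reached a mean of 1 TPM. The span within the list was wide, from 0.36 TPM for Gins3 to 145 TPM for Pold2 in replicate 1, and from 0 to 518 TPM for Pold2 in replicate 2. Across the 47 members the levels of the 2 libraries, on the log2(TPM + 1) scale, gave Pearson's r = 0.772 and Spearman's rho = 0.75. Across the 9858 genes at a mean of at least 1 TPM the values were 0.816 and 0.764. Both are descriptions across genes that share the same pair of libraries.

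**Figure D1:**
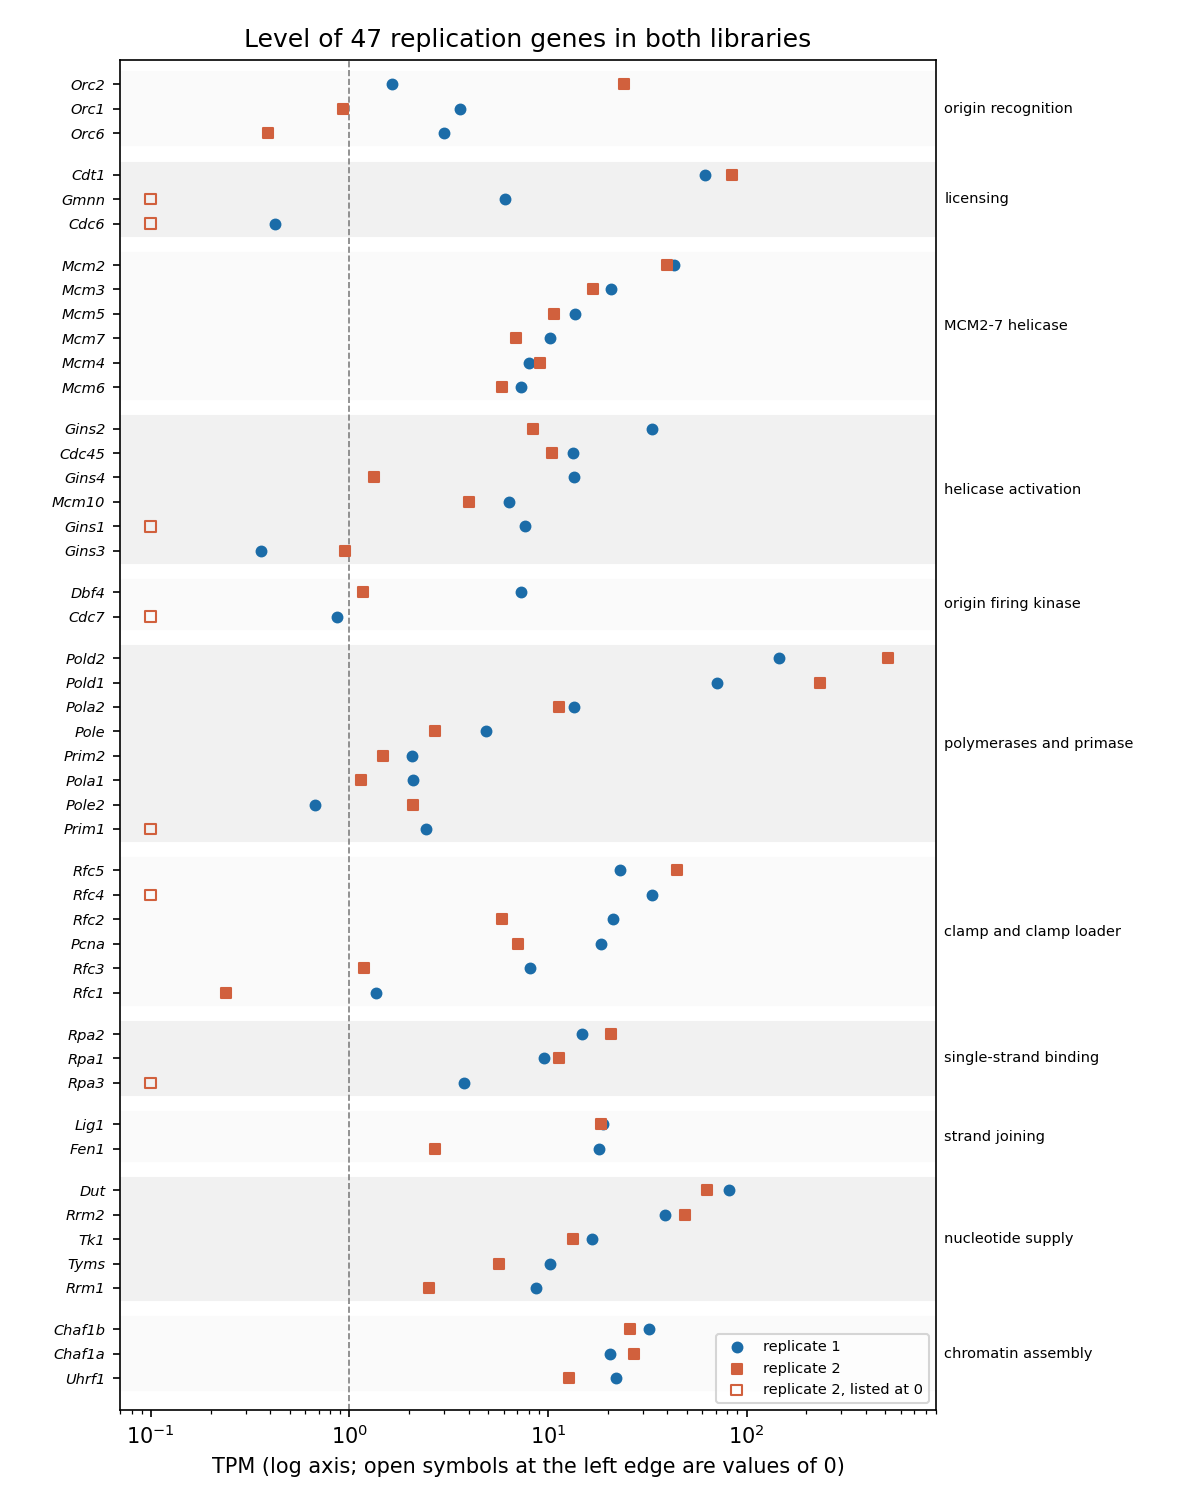
Level of each of the 47 members in TPM on a log axis, by role, with blue circles for replicate 1 and orange squares for replicate 2; open squares at the left edge are values of 0 and the dashed line marks 1 TPM. Pold2 stands highest at 145 and 518 TPM, and 7 members have no counts in replicate 2.

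The promoters of the members were searched for motifs that the choice of members did not use. E2F factors are the transcription factors known for switching on S-phase genes, and the CCAAT box, bound by NF-Y, is common near starts of cell cycle genes. RefSeq windows on GRCm38.p6, from 250 bases before to 50 after each annotated start, were found for 39 of the 47 members. An E2F motif, searched on both strands as TTTCCCGC, TTTCGCGC, TTTGCCGC or TTTGGCGC, was present for 14 of 39 members (35.9%), against 704 of all 27025 genes with such a window (2.61%). A CCAAT box, searched on both strands, was present for 24 of 39 members (61.5%), against 11096 of 27025 genes (41.1%). Both lay in the same window for 9 members (23.1%), against 304 genes (1.12%). The 27025 genes were not matched to the members for gene type or GC content. The motifs of the E2F search can overlap each other on opposite strands. Matches were most frequent in the MCM helicase, with 4 of 5 members that had a window, and in the licensing factors, with 2 of 2, while there was none among 5 members of nucleotide supply, 3 of single-strand binding and 2 of the origin firing kinase. A match describes letters and not a bound site, and no factor binding was measured. The 9 windows below are those with a match wholly before the start; they are shown, with up to 20 bases on either side, because they let the motif be compared between roles. Each is written 5′ to 3′ on the gene's strand, and capitals mark the motif or its reverse complement.
Orc1: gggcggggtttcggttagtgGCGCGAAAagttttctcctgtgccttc
Cdc6: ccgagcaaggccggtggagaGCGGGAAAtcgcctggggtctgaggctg
Mcm5: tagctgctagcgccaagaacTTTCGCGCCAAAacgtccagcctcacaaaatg
Mcm6: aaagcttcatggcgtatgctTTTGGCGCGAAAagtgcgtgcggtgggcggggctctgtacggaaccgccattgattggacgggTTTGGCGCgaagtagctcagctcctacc
Mcm7: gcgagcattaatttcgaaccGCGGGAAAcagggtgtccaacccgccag
Gins3: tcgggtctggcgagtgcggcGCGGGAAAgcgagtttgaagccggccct
Pola1: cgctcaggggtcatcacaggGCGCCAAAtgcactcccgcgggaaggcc
Rfc3: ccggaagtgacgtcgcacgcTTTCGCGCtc
Uhrf1: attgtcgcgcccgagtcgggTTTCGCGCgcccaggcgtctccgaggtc

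In Mcm5 a pair of motifs overlapped on opposite strands, 153 and 149 bases before the start, in the segment at chr8:75109336-75109387 (plus strand). Mcm6 had the same arrangement 110 and 106 bases before the start and a further match at 47 bases, in chr1:128359725-128359835 (minus strand). Orc1 had its match 27 bases before the start, in chr4:108579407-108579453 (plus strand), Cdc6 138 bases before, in chr11:98907993-98908040 (plus strand), and Uhrf1 185 bases before, in chr17:56304108-56304155 (plus strand). In the other 5 members with a match (Cdt1, Lig1, Mcm3, Pold1 and Pole2) it lay after the start only. Members with a match stood at both ends of the range. Cdc6 and Gins3 were among the 4 members under 1 TPM, and Pold1 and Cdt1 were among the 5 highest, beside Pold2, Dut and Rrm2, which had no match.

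**Figure D2:**
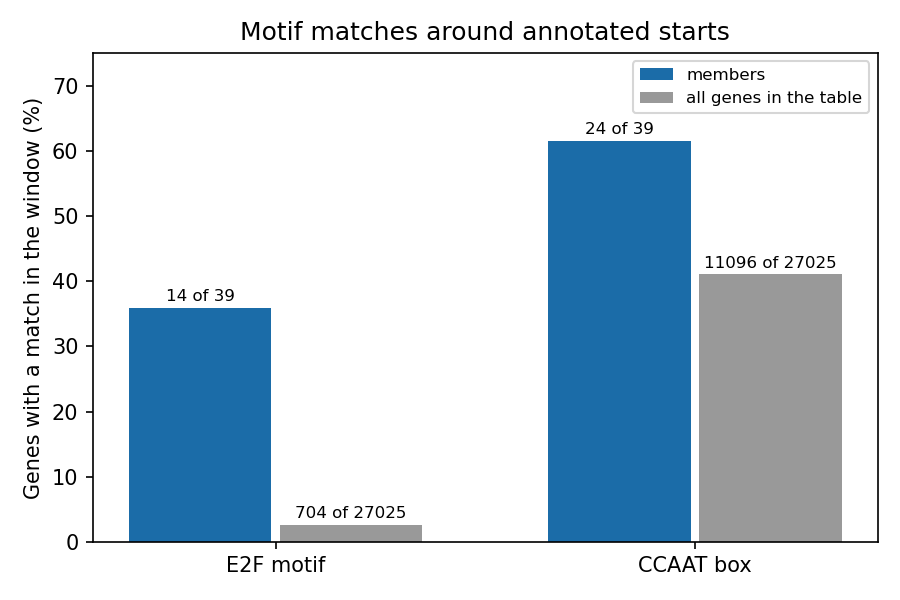
Percentage of genes with a motif match in the window from 250 bases before to 50 after the annotated start, blue bars for the members and grey bars for all genes of the table, with numbers above each bar. E2F motifs were found for 14 of 39 members and 704 of 27025 genes, CCAAT boxes for 24 of 39 members and 11096 of 27025 genes.

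Of the origin recognition genes, the listed Orc1, Orc2 and Orc6 were low in replicate 1, and Orc1 and Orc6 also in replicate 2. Orc1, the largest subunit and the ATPase that marks origins, had 3.62 TPM in replicate 1, against 0.93 TPM in replicate 2, from 163 and 4 counts. Orc6, the smallest subunit, had 3.01 and 0.39 TPM, from 179 and 1 counts. Orc2, a core subunit, had 1.64 TPM in replicate 1, against 24.1 TPM in replicate 2, the widest gap of the 3. That gap was not present in the counts, 220 and 14, which gave a ratio of replicate 1 over replicate 2 of 0.627 (95% interval 0.366 to 1.17) after scaling for depth. In replicate 2, 80.5% of the Orc2 TPM lay on Orc2-205, a transcript of 370 bases that held 8 counts, and the full-length form Orc2-201 had 1.64 and 0.47 TPM.

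The licensing factors diverged. Cdt1, which delivers the MCM ring to origins, was the third highest member by mean level, at 61.9 TPM in replicate 1, against 84.1 TPM in replicate 2 (4986 and 319 counts), all of it on a full-length coding transcript. Its partner Cdc6, the ATPase that loads the ring, was the lowest of all 47 by mean level, at 0.42 TPM (74 counts) in replicate 1 and 0 in replicate 2. Gmnn, geminin, the inhibitor that binds CDT1 and blocks relicensing, had 6.10 TPM (198 counts) in replicate 1 and no counts in replicate 2. Cdt1 was thus far above both its partner and its inhibitor in each library. Against a floor of 3 counts in replicate 2, Gmnn was at least 2.63-fold higher in replicate 1, with an exact interval from 2.12. For Cdc6 the interval of the ratio began at 0.781 and held 1, but lay above 1 with total counts.

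All 6 MCM helicase subunits were found in both libraries, and by TPM over all transcripts their order was nearly the same. Mcm2 was highest, at 43.1 TPM in replicate 1, against 39.6 TPM in replicate 2. Mcm3 followed at 20.9 and 16.8 TPM, and Mcm5 at 13.6 and 10.7 TPM. These subunits form the ring around DNA in equal numbers, yet their transcripts did not stand at equal levels. Mcm7 had 10.2 and 6.92 TPM, Mcm4 8.00 and 9.07 TPM, and Mcm6 was lowest at 7.28 and 5.85 TPM. The highest subunit exceeded the lowest 5.91-fold in replicate 1 and 6.77-fold in replicate 2. Mcm4 and Mcm7 exchanged places between the libraries. In full-length coding transcripts Mcm7 stood below Mcm6, at 5.10 and 0.78 TPM, and the span of the ring was 8.44-fold and 50.8-fold. Mcm3 had 20.7 and 7.03 TPM on such transcripts, which placed it below Mcm5 and Mcm4 in replicate 2. In that library 58.1% of the Mcm3 TPM lay on Mcm3-205, annotated as a retained intron. The scaled ratio of Mcm2, replicate 1 over replicate 2, was 0.919 (0.807 to 1.05), and those of Mcm5 and Mcm6 were 1.08 (0.842 to 1.40) and 1.08 (0.749 to 1.61), so their intervals held 1. With total counts the ratio of Mcm2 was 1.25, on the other side of 1.

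Among the genes that activate the helicase, Cdc45, the factor that joins the ring to GINS, had 13.4 and 10.4 TPM, with 849 and 31 counts. The 4 GINS subunits, which form a complex of equal parts, were far apart. Gins2 had 33.6 TPM in replicate 1, against 8.44 TPM in replicate 2, Gins4 13.5 and 1.33 TPM, Gins1 7.64 and 0 TPM, and Gins3 0.36 and 0.95 TPM. The highest subunit stood 93.3-fold above the lowest in replicate 1, and 37.6-fold in full-length coding transcripts, where Gins4 was highest. Gins3 rested on 32 and 4 counts, and its ratio of 0.319 had an interval of 0.113 to 1.24. Gins2 overlaps exons of Gse1 on the opposite strand over 2758 bases, and Gse1 held 29563 and 2472 counts. Without stated strand use in the counting, fragments of the pair cannot be told apart. Mcm10, a scaffold that assists activation, had 6.39 and 4.02 TPM, of which 89.0% and 92.0% lay on Mcm10-209, annotated as a retained intron. Of the DDK kinase, the regulatory subunit Dbf4 had 7.31 and 1.17 TPM (632 and 5 counts), and the catalytic subunit Cdc7 0.87 and 0 TPM (75 and 0 counts).

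By mean level, polymerase delta held the highest members of the list. Pold2, its regulatory subunit (chr11:5872180-5878292, minus strand, GRCm38), had 145 TPM in replicate 1, against 518 TPM in replicate 2 (4537 and 412 counts). Pold1, the catalytic subunit with proofreading activity (chr7:44532746-44548849), had 71.2 and 234 TPM (3608 and 300 counts). Together these genes made up 23.9% of the members' summed TPM in replicate 1 and 57.6% in replicate 2, but 13.9% and 27.0% of their counts. Both were higher in replicate 2 on the scale of counts too, with ratios of replicate 1 over replicate 2 of 0.439 (0.397 to 0.487) for Pold2 and 0.480 (0.426 to 0.542) for Pold1. With scaling to total counts the ratios were 0.595 and 0.650, short of 2-fold, and after removal of a trend with GC content 0.711 and 0.893.

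Polymerase alpha and primase, which lay down the starting primers, were lower. Pola2, the accessory subunit of polymerase alpha, had 13.6 and 11.4 TPM, and Pola1, its catalytic subunit, 2.10 and 1.14 TPM. Of the primase subunits, Prim2 had 2.06 and 1.47 TPM and Prim1 2.44 and 0 TPM. Within this complex the accessory subunit thus exceeded every other subunit in both libraries. Pole, the catalytic subunit of the leading strand polymerase epsilon, had 4.87 TPM in replicate 1, against 2.69 TPM in replicate 2. Its partner Pole2 had 0.67 and 2.09 TPM from 41 and 6 counts, a ratio of 0.273 (0.115 to 0.786). Only 7.80% of the Pole level in replicate 1 lay on the full-length Pole-201, and none of its 3 counts in replicate 2 did.

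The clamp and its loader differed by subunit. Pcna, the sliding clamp that holds polymerases on DNA, had 18.4 TPM in replicate 1, against 7.07 TPM in replicate 2, with 1000 and 18 counts and a ratio of 2.22 (1.40 to 3.76). After removal of the GC trend this ratio was 1.24. A processed copy, Pcna-ps2, held 30 and 0 counts of its own. The loader RFC opens the clamp with 5 different subunits. Rfc5 had 23.2 and 44.5 TPM, Rfc2 21.3 and 5.89 TPM, Rfc4 33.2 and 0 TPM, Rfc3 8.08 and 1.18 TPM, and the large subunit Rfc1 1.36 and 0.24 TPM. Rfc5, highest by mean level, had a ratio of 0.531 (0.402 to 0.717) from 706 and 53 counts. Rfc4 was the highest subunit in replicate 1 and had no counts in replicate 2, against 414 in replicate 1, a fold of at least 5.51 higher in replicate 1 against a floor of 3 counts, with an exact interval from 4.46. Its level in replicate 1 was carried at 95.5% by Rfc4-202, a transcript of 416 bases annotated for nonsense-mediated decay. In full-length coding transcripts Rfc2 led the loader in both libraries, at 21.3 and 5.89 TPM, and Rfc4 had 1.5 and 0 TPM. For Rfc1, the whole replicate 1 level was on transcripts whose identifiers are not in GENCODE M21, so their class is not known.

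RPA, the trimer that coats single-stranded DNA, had its middle subunit Rpa2 at 14.9 and 20.7 TPM, with a ratio of 0.865 (0.584 to 1.34). The large subunit Rpa1 stood at 9.54 and 11.4 TPM. The small subunit Rpa3 had 3.77 TPM in replicate 1 and 0 in replicate 2. Rpa1 shows how the scales can part, since its TPM was higher in replicate 2 while its counts, 909 and 14, gave a ratio of 2.59 (1.54 to 4.76) towards replicate 1. In replicate 2, 97.8% of the Rpa1 TPM was on Rpa1-205, a retained intron form of 716 bases. Of the enzymes that finish lagging strand fragments, the ligase Lig1 had 18.9 and 18.5 TPM (2038 and 99 counts) and the flap nuclease Fen1 18.1 and 2.69 TPM (1510 and 10 counts). The ratio was 0.821 (0.671 to 1.02) for Lig1 and 6.02 (3.27 to 12.6) for Fen1, and the TPM of these enzymes was alike in replicate 1 and apart in replicate 2. That likeness rests on Lig1-207, a form without a coding sequence that held 84.8% of the Lig1 TPM in replicate 1. On full-length coding transcripts Lig1 had 2.07 and 8.89 TPM, and Fen1 18.1 and 2.69 TPM.

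Nucleotide supply was among the higher groups. Dut, which removes dUTP so that uracil is not built into DNA, was highest, at 82.1 and 63.1 TPM with 4212 and 181 counts. Rrm2, the S-phase subunit of ribonucleotide reductase, had 38.7 and 49.2 TPM, and its partner Rrm1 8.68 and 2.52 TPM, a span of 4.46-fold in replicate 1 and 19.5-fold in replicate 2. The ratios of the pair lay on opposite sides of 1, at 0.666 (0.574 to 0.776) for Rrm2 and 2.91 (1.84 to 4.93) for Rrm1. Tk1, the salvage kinase for thymidine, had 16.6 and 13.3 TPM, with a ratio of 1.03 (0.725 to 1.52). Tyms, thymidylate synthase, had 10.2 and 5.64 TPM, of which 93.2% and 100% lay on the retained intron form Tyms-202, leaving 0.54 and 0 TPM on the full-length coding form.

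Chromatin assembly genes had the highest median of any role in replicate 1 and in replicate 2, at 22.02 and 25.9 TPM. Of CAF-1, the chaperone that deposits histones behind the fork, only Chaf1a and Chaf1b are on the list. These listed subunits were close, with Chaf1b at 32.3 and 25.9 TPM and Chaf1a at 20.6 and 27.1 TPM. Their span was 1.57-fold in replicate 1 and 1.05-fold in replicate 2. Uhrf1, which reads newly copied methylated DNA, had 22.02 and 12.8 TPM. The ratios were 1.03 (0.829 to 1.30) for Chaf1b, 0.642 (0.547 to 0.758) for Chaf1a and 1.21 (0.966 to 1.53) for Uhrf1. Chaf1a shares 2542 bases of exon with Ubxn6 on the opposite strand, which had 7259 and 490 counts. In all, 14 members overlap exons of another gene that has a row in the tables, among them Rfc2 with Lat2 and Orc2 with Nif3l1.

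Part of the members' level lay on transcripts that do not encode the whole protein. A transcript was called full-length coding where GENCODE M21 annotates it as protein coding with a coding sequence of at least 80% of the gene's longest. Of the members at a mean of 1 TPM, 15 of 43 in replicate 1 (34.9%) and 16 of 38 with any TPM in replicate 2 (42.1%) had at least 50% of their TPM elsewhere, against 30.7% and 33.6% of protein coding genes at that level. The part of summed TPM outside such transcripts was 32.0% and 59.9% for the members, and 32.9% and 37.0% for the coding genes. Without Pold1 and Pold2 it was 23.3% and 26.4% for the members, so in replicate 2 the share of the members is above that of the coding genes with these 2 members and below it without them. On the scale of counts it was 11.8% and 20.4% for the members and 18.6% and 19.8% for the coding genes. TPM divides by effective length, so the same count weighs more on a short form.

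Pold2 carried the largest example. Its transcript Pold2-202, a processed transcript of 342 bases with 3 exons, took 48.4% of the Pold2 TPM in replicate 1 and 82.1% in replicate 2, on 570 and 154 expected counts. The coding form Pold2-201, of 1646 bases and 11 exons, held 3820 and 258 counts and 64.5 and 92.7 TPM. Pold2-202 shares exon 2 with Pold2-201 and then ends in an exon that starts 38 bases upstream of exon 3, inside the intron. The 2 transcripts are shown across this junction, read from the GENCODE M21 transcripts: the last 40 bases of exon 2 (chr11:5876713-5876752, minus strand) and the next 44 bases, with the 38 bases specific to Pold2-202 in capitals.
Pold2-202: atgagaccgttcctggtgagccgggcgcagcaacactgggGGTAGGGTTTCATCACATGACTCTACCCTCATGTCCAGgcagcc
Pold2-201: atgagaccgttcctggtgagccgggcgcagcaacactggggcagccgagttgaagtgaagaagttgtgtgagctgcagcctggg

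For Pold1, 66.5% of the replicate 2 level was on Pold1-206, a coding fragment of 581 bases with no counts in replicate 1. Its full-length form Pold1-201 had 19.9 and 18.5 TPM, which are close to each other where the gene totals are not. Rfc5 had 60.3% and 92.9% of its level on the shorter coding form Rfc5-202, and 2.80 and 0.57 TPM on its full-length form. The Lig1-207 form named above is long, at 2968 bases, unlike these. Counted on full-length coding transcripts, 35 members reached a mean of 1 TPM, the member medians were 6.10 and 1.47 TPM, and the highest members were Pold2, Cdt1, Dut, Rrm2 and Mcm2. The share of all genes that reached 1 TPM on such transcripts is not given here. All of the level was on such transcripts in both libraries for 19 members, among them Cdt1, Mcm2, Mcm4, Mcm5, Mcm6, Cdc45, Gins4, Pola2, Pcna, Rfc2, Fen1, Rrm1, Rrm2, Dut and Chaf1a. Across the 47 members these levels gave r = 0.855 and rho = 0.807 between the libraries, again a description.

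**Figure D3:**
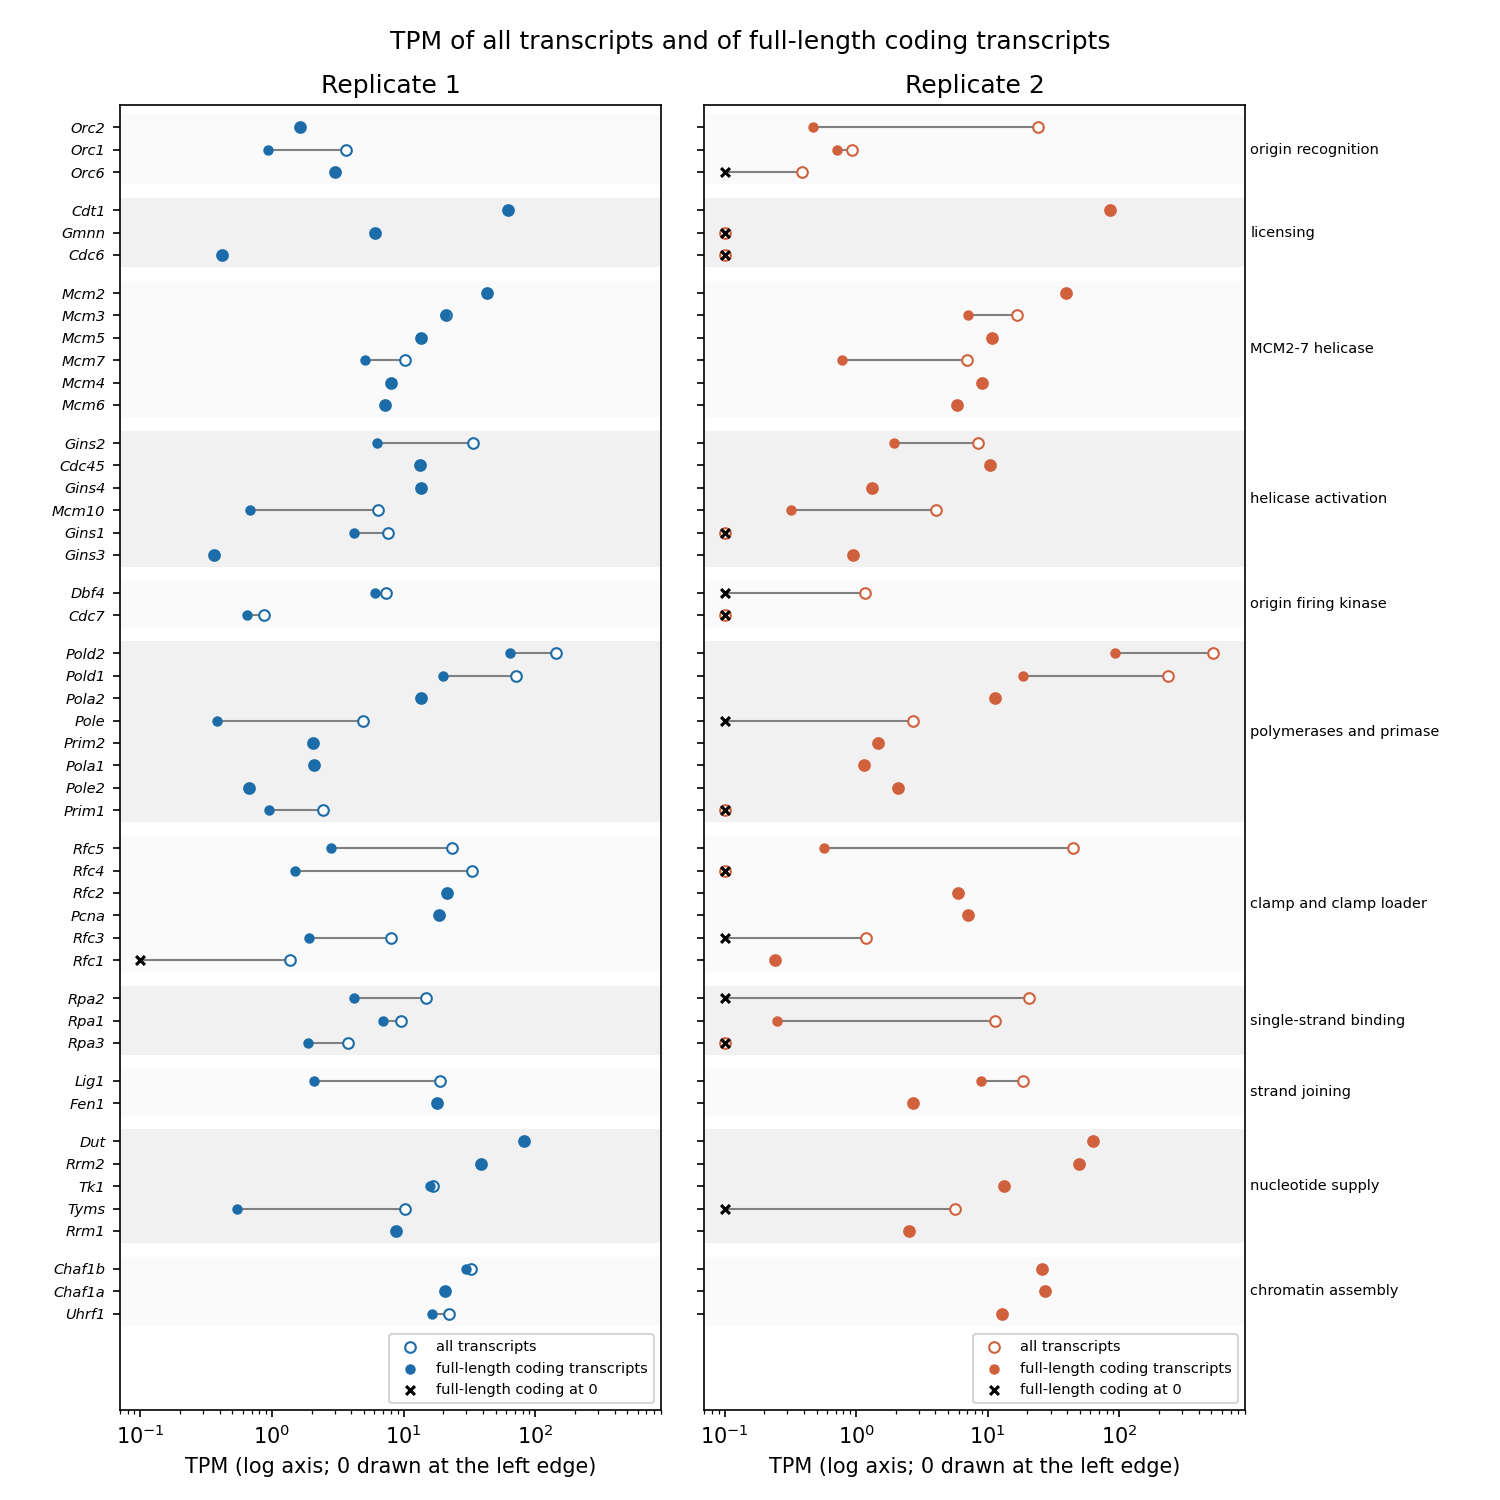
TPM of each member on a log axis, replicate 1 at left and replicate 2 at right, with open circles for all transcripts of the gene, filled circles for full-length coding transcripts and crosses at the left edge where these are at 0. A line shows the gap between both levels, as for Rfc5 (44.5 and 0.57 TPM), Orc2 (24.1 and 0.47 TPM) and Rpa1 (11.4 and 0.25 TPM) in replicate 2, while Cdt1, Mcm2 and Dut show no line; lines that end in a cross run to the edge of the plot.

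The dominant transcript was the same in both libraries for 13 of 22 members that had at least 2 annotated transcripts and a mean of at least 5 TPM. It differed for Orc2, Mcm3, Mcm7, Pold1, Rpa1, Fen1, Dut, Chaf1b and Uhrf1. In replicate 2 this rested on 14 counts each for Orc2, Mcm7 and Rpa1, 10 for Fen1, and 46 to 300 for the others. The same share over all genes is not given here, so whether 13 of 22 is usual for these libraries is not known. Uhrf1 had 65.6% of its level on Uhrf1-201 in replicate 1 and 100% on Uhrf1-203 in replicate 2, and Chaf1b had 92.7% on Chaf1b-201 and 100% on Chaf1b-202, which are pairs of full-length coding forms of like length. Dut had 54.4% on Dut-202 in replicate 1 and 72.3% on Dut-201 in replicate 2. How well fragments assign such forms at these counts was not tested.

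Between the libraries, scaled counts spread on both sides with no replicate check, since each side is 1 library. Of 36 members with a mean of at least 100 counts, 14 (38.9%) were at least 2-fold higher in replicate 1, near the 33.8% of all 8194 genes with that mean. They were Mcm3, Mcm7, Gins1, Gins2, Gins4, Dbf4, Pole, Pcna, Rfc2, Rfc3, Rfc4, Rpa1, Fen1 and Rrm1. Only Pold1 and Pold2, 2 of 36 (5.56%), were at least 2-fold higher in replicate 2, against 15.7% of genes. The minimum of 100 is on unscaled counts, so genes pass it mostly through the deeper replicate 1. Pole2 and Gins3, with ratios of 0.273 and 0.319, fell below that minimum and are not among the 36. The split between the directions thus depends in part on this choice. Among the 36 members, the largest ratio with counts in both libraries was that of Gins4, 8.67 (2.95 to 42.2) from 652 and 3 counts. The next was that of Fen1. Gins2 had a ratio of 3.19 (2.01 to 5.40), Rfc2 of 3.07 (1.85 to 5.51), Dbf4 of 5.04 (2.15 to 15.6), Rfc3 of 4.03 (1.10 to 33.5) and Pole of 3.56 (1.21 to 17.4). Mcm3 and Mcm7, at 2.04 (1.53 to 2.80) and 2.03 (1.2 to 3.73), were at the edge of 2-fold and came to 2.00 and 1.98 with DESeq2 size factors.

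No counts in replicate 2 were found for 7 of 47 members (14.9%), against 17.8% of 12132 genes with a mean of at least 10 counts. Against a floor of 3 counts per library, Rfc4 was at least 5.51-fold, Gins1 at least 3.01-fold and Gmnn at least 2.63-fold higher in replicate 1. Their exact intervals, with limits on both sides, reached lower and began at 4.46 for Rfc4, 2.42 for Gins1 and 2.12 for Gmnn. For Prim1, Rpa3, Cdc6 and Cdc7 the interval held 1, beginning at 0.975, 0.845, 0.781 and 0.791. With total counts in place of TMM scaling (a library scaling that plays down highly expressed and outlying genes) the intervals of these 4 lay above 1, so the call depends on the scaling. Over all 47 members, the interval of the ratio lay above 1 for 16 (34%), below 1 for 8 (17.0%) and held 1 for 23. Of all 12132 genes with a mean of at least 10 counts, it lay above 1 for 33.6% and below 1 for 25.4%. The 8 that were higher in replicate 2 were Cdt1, Mcm4, Pold1, Pold2, Pole2, Rfc5, Rrm2 and Chaf1a. With scaling to total counts, which multiplies each ratio by 1.36, 31 member intervals (66.0%) lay above 1, against 46.3% of all genes, and 4 (8.51%) below it, against 17.6% of all genes. The 4 were those of Cdt1, Pold1, Pold2 and Rfc5. After removal of the GC trend the ratio of Cdt1 was 1.008, against 0.624 (0.557 to 0.701) without it.

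The median log2 ratio of the members, replicate 1 over replicate 2, was 0.62, beside 0.52 for all 12132 genes with a mean of at least 10 counts. With total counts both were higher, at 1.04 and 0.94. With the GC trend removed the order was turned, at 0.20 for the members and 0.46 for all genes, and with a mean of at least 100 counts it was 0.20 and 0.29. As a list the members therefore did not stand apart from other genes between these libraries in 1 direction under every setting. Among markers of other lineages, the median log2 ratio was 3.32 for 7 macrophage, 2.94 for 9 granulocyte and 0.19 for 8 erythroid markers with a mean of at least 10 counts, and it was -0.86 for the 10 megakaryocyte markers. Their part in the ratios of the members was not tested.

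**Figure D4:**
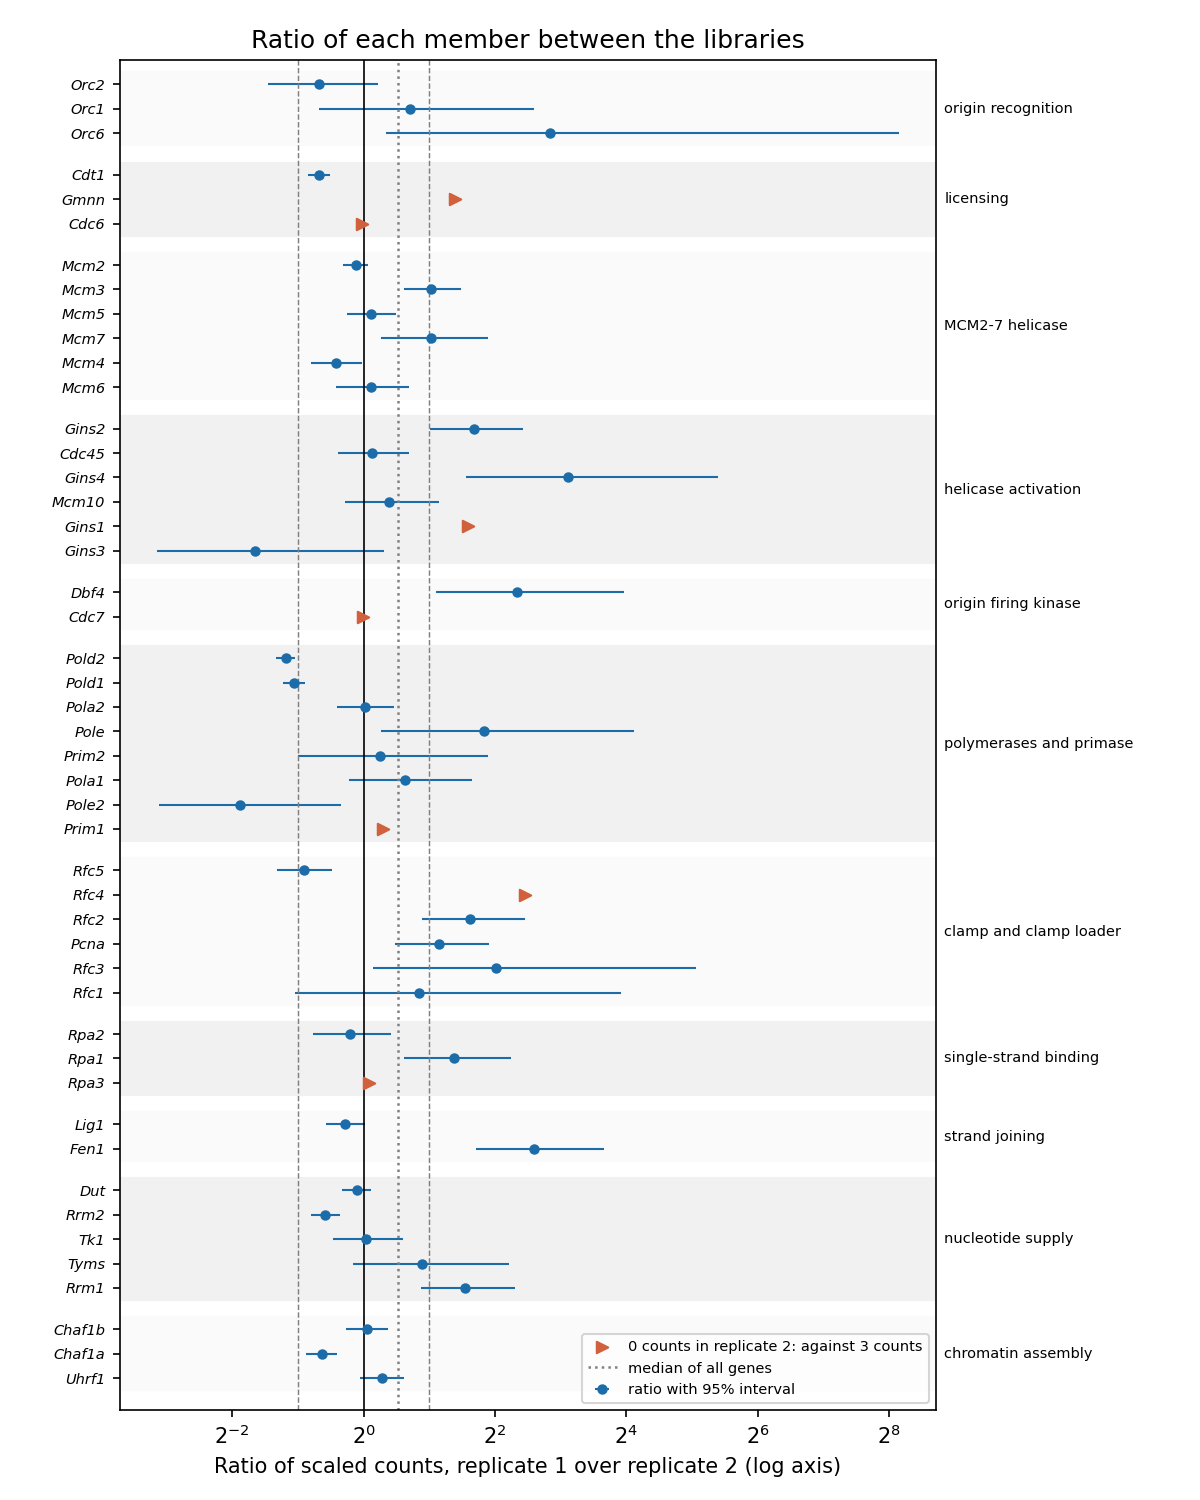
Ratio of scaled counts, replicate 1 over replicate 2, for each member on a log axis, with exact 95% intervals of counting error as bars; orange triangles are members with 0 counts in replicate 2, placed at their ratio against 3 counts. Dashed lines mark 2-fold, the dotted line the median of all genes; the intervals of Pold1, Pold2, Cdt1, Rrm2, Chaf1a, Rfc5, Mcm4 and Pole2 lie below 1.

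A further list of 53 replication genes outside the 47 had lower medians than the members, at 6.21 TPM in replicate 1 and 2.14 TPM in replicate 2. Their summed TPM was 1666 and 1268, beside 907 and 1308 for the members. Of these 53 genes, 42 (79.2%) reached a mean of 1 TPM. No counts in replicate 2 were found for 12 of 53, beside 7 of 47 members and 17.8% of 12132 genes with a mean of at least 10 counts. The highest were Rnaseh2c at 497 and 374 TPM and Rnaseh2a at 239 and 294 TPM, which are subunits of the nuclease that removes ribonucleotides from DNA. Dctpp1, a pyrophosphatase that cleans the nucleotide pool, had 138 and 67.2 TPM. Over the 53 genes the median log2 ratio was 0.99, beside 0.62 for the members and 0.52 for all genes.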

How the data were processed

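Per the file headers, the authors deposited for each of 2 libraries an expected count (an estimated number of fragments that need not be whole) and a TPM value for each gene and transcript. The file lists deposited beside them name the mm10 assembly and GENCODE M4, with aligner, quantifier and strand setting not given in the sources used here. Posterior mean TPM, also deposited, served as an alternative. Rows with numeric identifiers (26248) and control rows (97) were left out, with 15 counts in replicate 1 and 0 in replicate 2. GENCODE M21, also on that assembly (GRCm38), supplied symbols, positions and transcript classes, matched by Ensembl identifier for 42462 of 43346 genes.

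Expected counts were rounded and scaled with TMM factors from edgeR 4.0.16 (1.16 and 0.859) on genes with a mean of at least 10 counts. DESeq2 1.42.0 gave alternative size factors. Ratios of single genes took no prior count, and medians of log2 ratios a prior count of 0.5. Intervals are exact 95% Clopper-Pearson intervals, conditional on the summed count. Both intervals and floors take in counting error alone, as PCR copies could not be told from molecules. The ratio step was tested on simulated counts that held counting error alone, for genes with high counts in replicate 1 and with the scaling taken as known. That test does not cover members with low counts or the choice of scaling. R 4.3.3, Python 3.11.15, numpy 2.4.6, pandas 2.3.3, scipy 1.17.1, statsmodels 0.14.6 and matplotlib 3.10.9 were used.

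The members, the other lists and the alternatives were chosen with earlier results of these data known. The text names all 47 members, gives counts or ratios for the highest and lowest of a role and those past 2-fold, and names the 3 highest of the other replication genes; the lowest, also in the rule, is not reported here. Genes that overlap members were named after their values were seen. The restriction to full-length coding transcripts, the sums without Pold1 and Pold2 and the minimum of 10 scaled CPM were chosen after seeing the data. Protein sequences were not used here.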

Additional observations from a re-analysis of the deposited data

How the results depend on the processing

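No paired analysis was possible because the labels give 1 group. The median TPM of members, 10.4 over the mean of both libraries, ranged from 5.89 to 10.2 when a library was left out and was 3.58 on full-length coding transcripts. The 14 members at least 2-fold higher in replicate 1 became 16 of 36 with total counts (44.4%, against 43.5% of all genes). They became 12 with DESeq2 size factors (33.3%, against 33.0%) and 11 with the GC trend removed (30.6%, against 32.9%). Where a mean of at least 10 scaled CPM was asked for, the count was 8 of 27 (29.6%), against 22.9% of all genes so chosen. With a count minimum of 10 or none it was 20 of 47 (42.6%), against 41.3% and 45.4% of all genes. The 2 members at least 2-fold higher in replicate 2 became 0 with total counts (7.30% of all genes), 4 with the GC trend removed (14.5%), Pold1 and Pold2 not among them (ratios 0.893 and 0.711), and 4 each with a count minimum of 10 (16.4%) or none (22.3%). In these the cause was not tested. The count of members at a mean of 1 TPM ran from 31 at a threshold of 5 TPM to 45 at 0.5 TPM and with posterior means. Of 40 single ratios, 27 stayed within their own interval with total counts, 40 with DESeq2 size factors and 31 with the GC trend removed. The ratio was above 1 for 26 of the 40 as reported, and for 31, 25 and 24 under these settings. The number of members with the same dominant transcript was 13 with posterior means and 16 of 29 at a minimum of 1 TPM. The depth of replicate 2 limits single members: with a median of 15 counts, many differences of 2-fold lie within counting error.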

Other observations

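Over the 47 members, Spearman's rho between GC content and the log2 ratio of replicate 1 over replicate 2 was -0.378, and over 12075 genes with a mean of at least 10 counts it was -0.298. The length deposited for each gene in replicate 1 depends on the transcript forms quantified there. With that length rho was -0.276 for the members and -0.117 for all genes. These are descriptions across genes that share the same 2 libraries.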
